A study of Rattus norvegicus with 6 samples.

Results

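Interferon-stimulated genes are genes whose transcription is switched on by interferon signalling. A list of such genes, with genes of the same pathway, was followed in rat H9c2 cells after knockdown of the long non-coding RNA Tug1. Its 46 genes were taken by symbol from the deposited count table, which held 40456 genes. Among them the adaptor Mavs and the constitutive factor Irf3 act before interferon is made. The list named the RNA sensor RIG-I both as Ddx58 and as Rigi, and the table held it once, as Ddx58. By role the members comprised 6 sensors (the adaptor Mavs counted among them), 5 transcription factors and 35 effectors. H9c2 is an established line of rat heart myoblasts, so all libraries share 1 genetic background. Before harvest all cells had differentiated over 5 days at reduced serum, with retinoic acid at 1 µM added every day. The control group was transfected by Lipofectamine with a negative control gapmer and the knockdown group with a gapmer against Tug1, each at 25 nM for 24 h, with 3 libraries per group. A gapmer is a short antisense strand with locked ends that lets RNase H cut the RNA it pairs with. No untransfected cells were analysed here.

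The 2 agents were 16 bases long and are shown because both groups received a synthetic nucleic acid and differed in its sequence.
Tug1 gapmer: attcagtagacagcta
Negative control gapmer: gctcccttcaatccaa

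Interferons are secreted when sensors such as RIG-I and MDA5 meet foreign RNA and pass the signal through the adaptor MAVS to the transcription factors IRF3 and IRF7. Bound interferon acts through Janus kinases to form a complex that includes STAT2 and IRF9 and binds the interferon-stimulated response element (ISRE) in promoters. The target genes encode antiviral proteins, more sensors and more IRF7, and muscle and heart cells can run this programme as most cell types do.

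The ISRE is shown in the members themselves, because it is the element that the interferon-activated complex binds. Promoter windows came from a RefSeq table of the rat assembly GRCr8 and ran from 250 bases before to 50 bases after each start. A window was found for 34 of the 46 members, and none was used for Ddx58, Dhx58, Zbp1, Ifit1, Ifit2, Mx2, Oas2, Ifitm1, Adar, Isg15, Usp18 and Ccl5. The letters searched were GAAA, any 2 bases and GAAA again, or on the other strand TTTC, any 2 bases and TTTC. They occurred in 20 of 34 member windows (58.8%), against 3.92% of all 33469 windows in the table and 3.07% of the windows of genes tested in these libraries. Members were listed for their link to interferon signalling, so this excess goes with the choice of the list and is no result of the knockdown. Among members with a window, 16 of the 23 that were lower after knockdown held the letters, as did 4 of the 7 that did not pass the test and 0 of the 4 that were higher. This split was not tested, and the lower members Isg15, Ifit1, Mx2, Usp18 and Adar had no window. In the 200 bases before the start alone, 18 member windows held them (52.9%), against 2.74% of all.

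Stretches of up to 40 bases before the start follow for the 11 members whose ISRE letters lay before a start that coincides with the edge of the RefSeq gene. The ISRE letters are in capitals, and each stretch reads 5′ to 3′ on the strand of its gene. In Bst2 a pair of overlapping matches gives a longer run of capitals. The first 9 genes were lower after knockdown.
Ifit3 (chr1:241527267-241527306, plus strand): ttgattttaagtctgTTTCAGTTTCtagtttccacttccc
Cxcl10 (chr14:15988816-15988847, plus strand): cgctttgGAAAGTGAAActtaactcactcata
Ifitm3 (chr1:205541778-205541817, minus strand): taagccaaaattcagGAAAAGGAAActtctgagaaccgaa
Ifitm2 (chr1:205482357-205482396, minus strand): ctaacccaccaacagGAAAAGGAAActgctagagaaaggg
Gbp2 (chr2:234005681-234005720, plus strand): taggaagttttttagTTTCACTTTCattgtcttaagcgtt
Xaf1 (chr10:57415909-57415934, plus strand): tgttttgtgtgcaaaGAAACAGAAAc
Bst2 (chr16:18255068-18255107, minus strand): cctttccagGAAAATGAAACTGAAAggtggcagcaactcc
Ifih1 (chr3:67684003-67684042, minus strand): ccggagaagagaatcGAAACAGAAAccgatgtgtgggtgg
Ifi27 (chr6:128355213-128355252, plus strand): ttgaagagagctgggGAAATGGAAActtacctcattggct
Gbp5, not called (chr2:233910928-233910967, plus strand): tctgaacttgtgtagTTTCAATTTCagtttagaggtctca
Parp14, not called (chr11:78408043-78408082, plus strand): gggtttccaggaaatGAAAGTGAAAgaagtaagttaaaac

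Ifitm2 and Ifitm3, between which Ifitm1 lies in the RefSeq gene order, both carried the same letters GAAAAGGAAA, and Ifih1 and Xaf1 both carried GAAACAGAAA. A second element, the gamma-activated site of the interferon-gamma response, was searched as TTCNNNGAA, which reads the same on both strands. It occurred in 10 of 34 member windows (29.4%), against 8.87% of all windows, and in 7 of the 23 windows of lower members. Of its 10 matches in member windows 1 overlapped an ISRE match. As with the ISRE, the share in members goes with the choice of the list. A match describes letters in a window and does not show that a factor was bound.

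**Figure D1:**
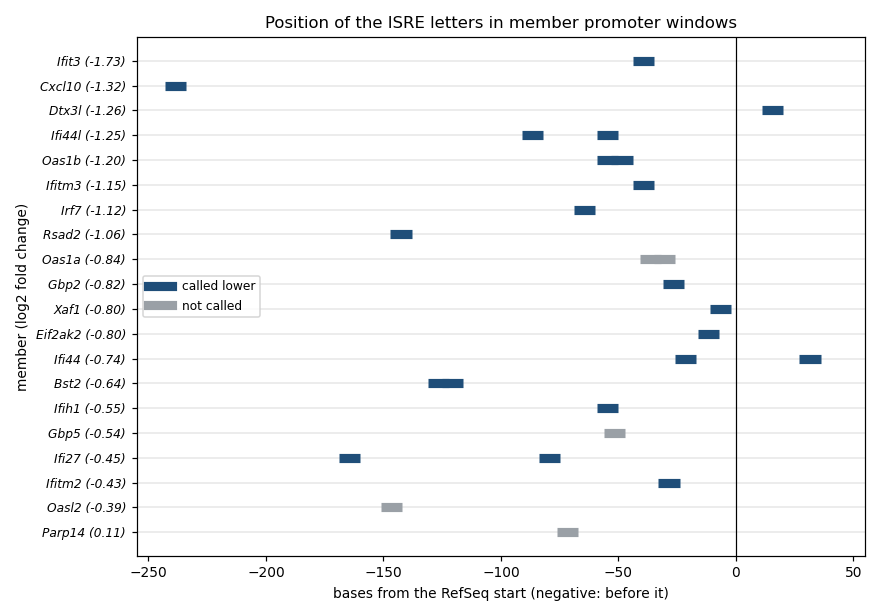
Position of each ISRE match (bars) in bases from the RefSeq start, for the 20 members with a match, ordered by log2 fold change (in brackets). Dark bars mark members lower after knockdown and grey bars members that did not pass the test. Matches lay before the start in all but Dtx3l and the second match of Ifi44, and no member that was higher appears.

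The 6 libraries were of even depth, with 12978548 to 13544337 counts each, so that 1 CPM (the unit of level used here, counts scaled to a common library size) corresponded to 12.9 to 13.8 counts. Tug1 itself fell from 54.7, 52.0 and 55.4 CPM in control replicates 1 to 3 to 11.9, 11.2 and 12.5 CPM in knockdown replicates 1 to 3, or -2.19 ± 0.08 in log2 terms (SE, edgeR adjusted p = 4.39e-16). The labels name the cells cardiomyocytes, yet Myh6, Myh7, Nkx2-5, Nppa and Nppb had at most 4 counts in any library, and only 3 of 10 cardiomyocyte markers passed the filter on low counts. These 3 were Tnnt2 and Actc1, both called higher after knockdown, and Gata4, not called. Mean levels in controls were 349 CPM for Tnnt2, 9.22 CPM for Actc1 and 12.7 CPM for Gata4. The cardiomyocyte list summed to 358 to 390 CPM in controls and 417 to 469 CPM in knockdown libraries. Skeletal muscle markers were detected (9 of 10 tested) and summed to 919 to 934 CPM in controls and 1363 to 1451 CPM in knockdown libraries. Of these, 7 were called higher, Myod1 was called lower (-0.32) and Myh8 was not called. Fibroblast markers (7 of 10 tested, 3 lower and 2 higher) summed to 44190 to 45548 CPM in controls and 41528 to 44360 CPM in knockdown libraries. Of 10 macrophage and leukocyte markers 3 passed the filter: Cd14, called lower, Cd68, called higher, and Csf1r, not called. Over all tested genes 30.9% were lower and 30.8% higher. This list summed to 78.4 to 82.2 CPM in controls and 50.4 to 50.5 CPM in knockdown libraries. Mean levels went from 68.0 CPM in controls to 33.4 CPM in knockdown libraries for Cd14, and from 3.60 to 7.65 CPM for Cd68. Ptprc, Adgre1 and Ms4a1 had no count in any library. The part of these marker changes in the results was not tested. Labels do not say whether libraries came from separate cultures, so p-values measure the spread between these samples, which may be technical.

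Knockdown replicate 1 stood apart from the other knockdown libraries in the interferon-stimulated genes. Its level was the lowest of the 3 knockdown libraries in 38 of the 44 members tested, where 33.6% of all tested genes had it lowest. The median deviation from the control level, on the log2(CPM + 0.5) scale, was -1.19 in knockdown replicate 1, -0.25 in replicate 2 and -0.46 in replicate 3. In the controls it was 0.09, 0.02 and -0.10. Across all genes the library did not stand apart: the SD of log2 ratios was 0.31 and 0.30 between knockdown replicate 1 and replicates 2 and 3, and 0.29 between the latter. Its Tug1 level lay between theirs. Results are therefore given with all 6 libraries and again without this one. This library was picked for its low values in these same members. P-values without it are therefore descriptive and give no separate support for a change.

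A further measure of the same gap was the log2 level of knockdown replicate 1 minus the mean of the other knockdown libraries, taken over the 10707 tested genes with a mean of at least 5 CPM, among them 33 members. Of the 20 genes with the most negative gap, 12 were members. Mx2, an antiviral GTPase, was the lowest of all at -2.49, followed by Ifit1 at -1.89, Dhx58 at -1.87, Ifit3 at -1.76 and Usp18 at -1.57. Among the other 8 genes, Slfn4, Ifi47 and Gbp4 stood in a list of further interferon-induced genes and RT1-S3 in a list of antigen presentation genes. Samd9, Apol9a, LOC108351606 and Zfp569 stood in no list. The gap was negative in 41 of the 44 tested members and in 50.5% of all tested genes. A single library allows no test of this gap.

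**Figure D2:**
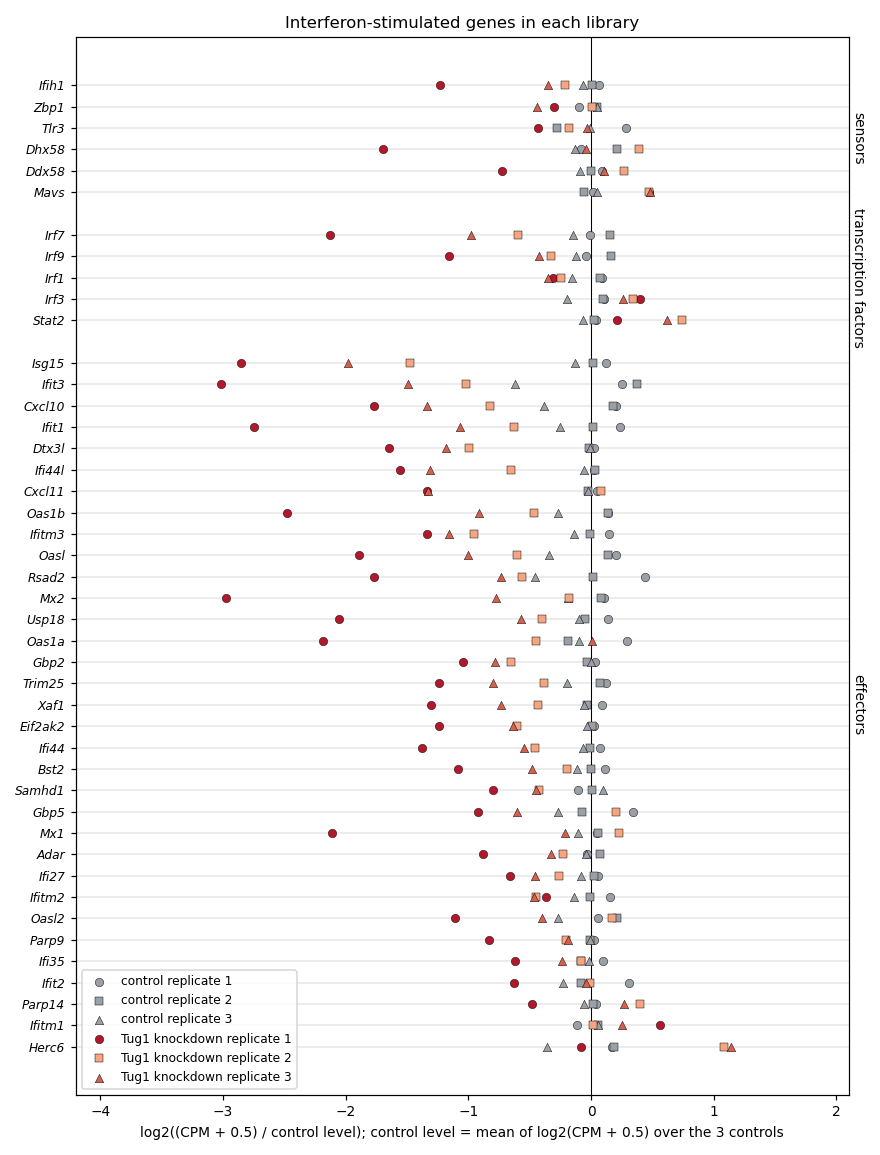
Level of each tested member in each library (points), as the log2 ratio of CPM + 0.5 to the mean log2 control level, with members grouped by role and ordered by fold change. Knockdown replicate 1 (dark circles) lies furthest to the left in most rows (median -1.19), and replicates 2 and 3 lie nearer to the controls (medians -0.25 and -0.46).

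Most tested members were lower in Tug1 knockdown cells. Effectors were 24 of the 28 lower members, and 33 of the 44 members tested. With edgeR's quasi-likelihood test and Benjamini-Hochberg adjustment over 14216 tested genes, 32 of the 44 tested members were called at an adjusted p under 0.05, against 61.7% of all tested genes. Of these, 28 were lower, against 30.9% of all tested genes. The other 4 were higher: Mavs, Irf3, Stat2 and Herc6, against 30.8% of all genes. The remaining 12 members did not pass. The median log2 fold change over the tested members was -0.58 and that over all tested genes 0.00. Without knockdown replicate 1 the counts were 26 lower and 6 higher of 45 tested, against 29% of all genes in each direction and 58.1% in both together, and the members' median was -0.38. The median was -0.90 without knockdown replicate 2 and -0.65 without knockdown replicate 3. Oas2 and Ccl5 did not pass the filter on low counts. In bulk RNA a lower level in every cell and fewer cells expressing a gene cannot be told apart.

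All 3 knockdown libraries lay below all 3 controls in 26 members, a pattern seen in 32.6% of all tested genes. The reverse order held for Irf3, Mavs and Stat2, against 33% of all tested genes. The other 15 tested members overlapped between groups, and in 13 of them knockdown replicate 1 was below every control. Ddx58 and Parp14 shared a split pattern, below every control in knockdown replicate 1 and above every control in replicates 2 and 3, which held for 0.563% of all tested genes.

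Sensors detect viral nucleic acid inside the cell, and the class as drawn here also held Mavs, an adaptor that passes their signal on. Of the 6 members in this class, Ifih1 was lower, Mavs was higher and 4 did not pass, where 61.7% of all tested genes were called. The median log2 fold change was -0.25, or 0.03 without knockdown replicate 1. Ifih1, which encodes the long double-stranded RNA sensor MDA5, was at 20.2, 19.4 and 18.4 CPM in controls and 7.97, 16.6 and 15.0 CPM in knockdown replicates 1 to 3. The groups did not overlap, and knockdown replicate 1 was far below the others. It changed by -0.55 ± 0.16 on the log2 scale (SE, edgeR adjusted p = 0.00363) and was -0.29 without that library (adjusted p = 0.0221). DESeq2's Wald test did not call Ifih1 (adjusted p = 0.122).

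Mavs, the mitochondrial adaptor that RIG-I and MDA5 signal through, was at 31.4, 29.8 and 32.2 CPM in controls and 43.3, 43.3 and 43.6 CPM in knockdown libraries. Every knockdown library lay above every control and the knockdown libraries were nearly equal, knockdown replicate 1 included. The rise was 0.48 ± 0.07 on the log2 scale (SE, edgeR adjusted p = 1.8e-06). Thus the adaptor and the sensor MDA5 moved in opposite directions.

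Ddx58, the sensor of short 5′-triphosphate RNA also called RIG-I, was at 36.3, 34.0 and 31.9 CPM in controls and 20.4, 41.0 and 36.7 CPM in knockdown replicates 1 to 3. Knockdown replicate 1 was at 59.8% of the control mean, while replicates 2 and 3 were at 120% and 108%. The test over all libraries gave -0.06 ± 0.14 (SE, adjusted p = 0.727), and without knockdown replicate 1 the sign turned, at 0.19 (edgeR adjusted p = 0.049). Dhx58, the regulatory helicase LGP2 of the same family, was at 9.66, 12.0 and 9.33 CPM in controls and 2.83, 13.6 and 9.97 CPM in knockdown libraries. Here too only knockdown replicate 1 was below the controls, and the log2 fold change went from -0.24 ± 0.27 (SE, adjusted p = 0.467) to 0.19 without it (adjusted p = 0.263, edgeR).

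The endosomal sensor Tlr3 was at 4.37, 2.79 and 3.47 CPM in controls and 2.46, 3.03 and 3.40 CPM in knockdown libraries. Zbp1, a sensor of Z-form nucleic acid, had 13, 15 and 15 counts in controls and 11, 15 and 9 counts in knockdown libraries. Both overlapped between groups and neither passed the test, with log2 fold changes of -0.26 ± 0.22 for Tlr3 and -0.35 ± 0.34 for Zbp1 (SE, edgeR adjusted p = 0.312 and 0.383).

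The 5 transcription factors were all called, 3 lower and 2 higher, where 61.7% of all tested genes were called. The groups overlapped in none of the 5. Over all tested genes, 32.6% were lower and 33% higher without overlap. The same 3 were lower and the same 2 higher without knockdown replicate 1. Irf7, the interferon-inducible factor that amplifies interferon production, was at 212, 237 and 193 CPM in controls and 48.3, 141 and 108 CPM in knockdown replicates 1 to 3. The knockdown libraries stood at 22.5%, 65.7% and 50.3% of the control mean. This gave the largest decrease among the factors, -1.12 ± 0.19 (SE, edgeR adjusted p = 1.73e-05), and -0.78 without knockdown replicate 1 (adjusted p = 4.03e-10).

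Irf9, the DNA-binding subunit of the interferon-activated STAT complex, was at 63.1, 72.5 and 59.7 CPM in controls and 28.8, 51.6 and 48.3 CPM in knockdown libraries. The decrease in Irf9 was -0.60 ± 0.12 (SE, edgeR adjusted p = 0.000199) with all libraries and -0.38 without knockdown replicate 1 (adjusted p = 8.13e-05). Irf1, the factor best known from the interferon-gamma response, was at 64.8, 63.9 and 54.6 CPM in controls and 49.0, 51.3 and 47.7 CPM in knockdown libraries. Unlike Irf7 and Irf9 it did not set knockdown replicate 1 apart, and it fell by a similar amount with and without that library, -0.31 ± 0.07 (SE, adjusted p = 0.0004, edgeR) and -0.30.

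Stat2, which encodes a subunit of the same complex as IRF9, was higher, at 142, 141 and 133 CPM in controls and 161, 232 and 213 CPM in knockdown libraries. All knockdown libraries were above all controls, with knockdown replicate 1 the lowest of them. The rise was 0.54 ± 0.08 on the log2 scale (SE, edgeR adjusted p = 5.51e-06), and 0.69 without that library. Irf3, the constitutive factor that MAVS signalling activates, was at 52.2, 51.9 and 42.2 CPM in controls and 64.0, 61.8 and 58.1 CPM in knockdown libraries. It was higher by 0.33 ± 0.07 (SE, edgeR adjusted p = 0.000417), here with knockdown replicate 1 the highest library. Stat2 and Irf9, whose products act in the same complex, thus moved in opposite directions.

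**Figure D3:**
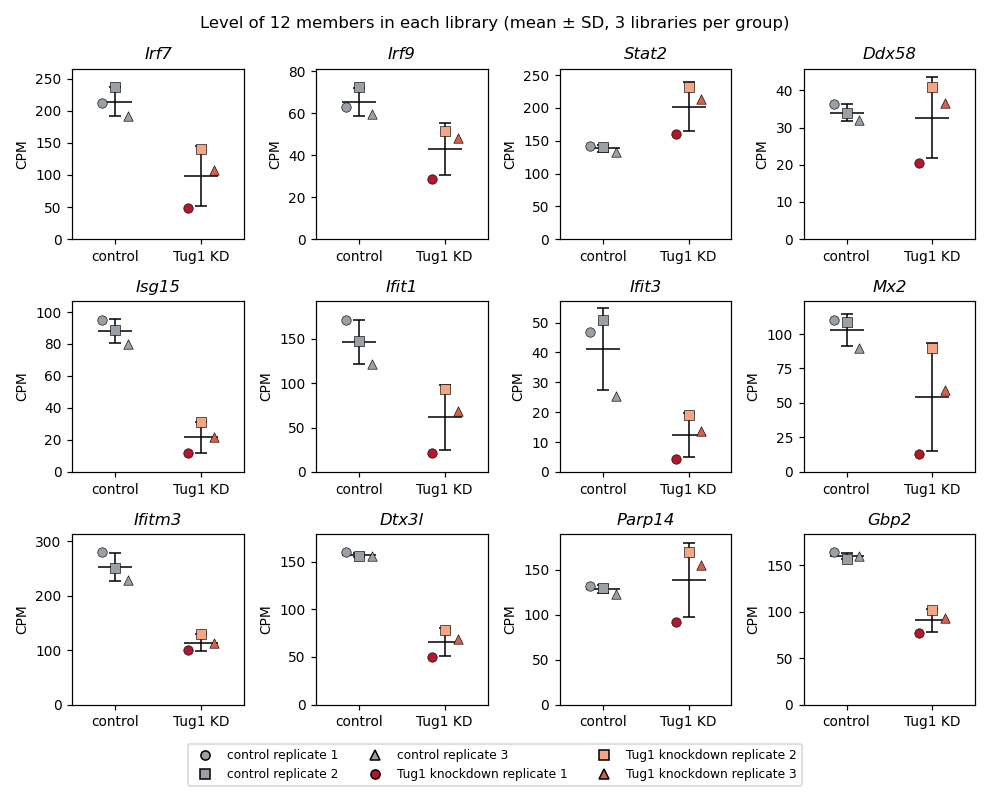
CPM in each library for 12 members (points, with shapes for replicate numbers), the group mean (long bar) and SD (whiskers, 3 libraries per group). Isg15, Ifitm3, Dtx3l and Gbp2 are separated between groups in all libraries, whereas Ddx58 and Parp14 fall only in knockdown replicate 1.

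Effectors are the proteins that carry out the antiviral state. Of 35 effectors 33 were tested, and 24 were lower, 1 was higher and 8 did not pass, with a median log2 fold change of -0.80. Over all tested genes 30.9% were lower and 30.8% higher, and these shares apply to the effector groups below too. Without knockdown replicate 1, 22 of 34 effectors were lower and 2 higher, against 29% of all genes in each direction, with a median of -0.49. Knockdown replicate 1 was the lowest knockdown library in 31 of the 33, against 33.6% of all tested genes. Near-identical copies within the Ifit, Ifitm, Oas, Mx and Gbp families can share reads, and neither the treatment of such reads nor the use of strand in counting is given in the sources used here, so single members of these families are uncertain.

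The ubiquitin, ISG15 and ADP-ribose system had 5 of 7 members lower and 1 higher. Isg15, a ubiquitin-like protein that is joined to other proteins during antiviral responses, fell the most of all tested members. It was at 95.3, 88.6 and 80.1 CPM in controls and 11.7, 31.1 and 21.9 CPM in knockdown libraries, or 13.3%, 35.4% and 24.9% of the control mean. Even the highest knockdown library was far below the lowest control. The change was -2.03 ± 0.16 (SE, edgeR adjusted p = 1.62e-10) and remained large without knockdown replicate 1, at -1.73 (adjusted p = 4.43e-16). Usp18, the protease that removes ISG15 and dampens the interferon receptor, was at 60.6, 53.2 and 51.4 CPM in controls and 12.8, 41.4 and 36.8 CPM in knockdown libraries. The change of -0.86 ± 0.20 (SE, edgeR adjusted p = 0.000702) came down to -0.49 without the lowest library. DESeq2's Wald test did not call Usp18 (adjusted p = 0.126).

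Trim25, the ubiquitin ligase that activates RIG-I, was at 18.6, 17.9 and 14.7 CPM in controls and 6.89, 12.9 and 9.52 CPM in knockdown libraries. The groups did not overlap, and the change was -0.81 ± 0.15 (SE, edgeR adjusted p = 6.78e-05). Herc6, which joins ISG15 to its targets in mouse cells, was the only effector called higher, at low counts of 16, 16 and 9 in controls and 13, 37 and 38 in knockdown libraries. Knockdown replicate 1 lay within the control range, and the change was 1.04 ± 0.37 (SE, edgeR adjusted p = 0.017). Leaving out knockdown replicate 2, knockdown replicate 3 or control replicate 3 each ended that call.

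Dtx3l, Parp9 and Parp14 encode a ubiquitin ligase and ADP-ribosyltransferases that work together and lie close together in the genome: Parp9 and Dtx3l are adjacent RefSeq genes, with 1 gene between Dtx3l and Parp14. Dtx3l was at 160, 156 and 156 CPM in controls and 49.7, 78.6 and 69.2 CPM in knockdown libraries, a separation wide beside the spread in either group. Its change was -1.26 ± 0.09 (SE, edgeR adjusted p = 6.46e-11), and -1.09 without knockdown replicate 1. Parp9 was at 119, 116 and 116 CPM in controls and 65.6, 101 and 102 CPM in knockdown libraries, a change of -0.38 ± 0.10 (SE, edgeR adjusted p = 0.00187) that was -0.20 without knockdown replicate 1 and was not called by DESeq2's Wald test (adjusted p = 0.101). Parp14 was at 132, 130 and 123 CPM in controls and 92.0, 170 and 155 CPM in knockdown libraries. It was not called, at 0.11 ± 0.12 (SE, adjusted p = 0.451), yet was called higher without knockdown replicate 1, at 0.34 (edgeR adjusted p = 7.64e-06). In knockdown replicates 2 and 3 these genes lay well below the controls (Dtx3l), slightly below them (Parp9) and above them (Parp14).

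Antiviral enzymes and proteins had 12 of 17 tested members lower and none higher. In the Ifit family, whose proteins bind foreign RNA, Ifit3 was at 46.9, 51.0 and 25.4 CPM in controls and 4.42, 19.2 and 13.7 CPM in knockdown libraries. All knockdown libraries were below the lowest control, which was itself well under the other controls. Ifit3 fell by 1.73 on the log2 scale (SE 0.26, edgeR adjusted p = 3.92e-06), and by 1.32 without knockdown replicate 1. Ifit1 was at 172, 147 and 122 CPM in controls and 21.3, 93.9 and 69.0 CPM in knockdown libraries, which is 14.5%, 63.8% and 46.9% of the control mean. Its change was -1.26 ± 0.24 (SE, edgeR adjusted p = 9.19e-05) and -0.85 without knockdown replicate 1, and DESeq2's Wald test did not call it (adjusted p = 0.0598). Ifit2, adjacent to Ifit3, was at 48.2, 36.7 and 33.2 CPM in controls and 24.9, 38.7 and 37.7 CPM in knockdown libraries. It was low only in knockdown replicate 1 and was not called, at -0.22 ± 0.13 (SE, edgeR adjusted p = 0.133).

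Ifitm3, a membrane protein that blocks virus entry, was at 279, 251 and 228 CPM in controls and 99.5, 130 and 112 CPM in knockdown libraries. Knockdown replicate 1 was close to the others here, and the change of -1.15 ± 0.07 (SE, edgeR adjusted p = 7.75e-12) was -1.06 without it. Ifitm2, of the same family, fell by 0.43 (SE 0.06, edgeR adjusted p = 3.54e-06) from 116, 104 and 94.9 CPM to 80.9, 76.5 and 75.6 CPM. Ifitm1 and Ifitm2 were the tested effectors in which knockdown replicate 1 was not the lowest knockdown library. Ifitm1, with 10, 12 and 12 counts in controls and 21, 12 and 15 in knockdown libraries, was not called (0.43 ± 0.34 SE, edgeR adjusted p = 0.28).

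Eif2ak2, the RNA-activated kinase PKR that halts translation, was at 277, 272 and 266 CPM in controls and 115, 179 and 174 CPM in knockdown libraries. It was separated between groups in every library, with a change of -0.80 ± 0.09 (SE, edgeR adjusted p = 1.38e-07). Rsad2, the antiviral enzyme viperin, was at 13.3, 9.75 and 6.86 CPM in controls and 2.46, 6.36 and 5.59 CPM in knockdown libraries. The highest knockdown library came close to the lowest control, and the change was -1.06 ± 0.24 (SE, edgeR adjusted p = 0.000475). Adar and Samhd1, which respectively edit double-stranded RNA and deplete nucleotides, fell by 0.46 and 0.56 (edgeR adjusted p = 0.000314 and 4.94e-05). Without knockdown replicate 1 Adar was at -0.28 and Samhd1 at -0.45, both still called. Bst2, which tethers budding virus, was at 4.14, 3.79 and 3.47 CPM in controls and 1.52, 3.25 and 2.57 CPM in knockdown libraries. Its change of -0.64 ± 0.24 (SE, edgeR adjusted p = 0.0233) was no longer called without knockdown replicate 1, at -0.38 (adjusted p = 0.168), nor when control replicate 1 or control replicate 2 was left out, nor by DESeq2's Wald test (adjusted p = 0.0566).

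The Mx proteins are GTPases that trap incoming virus, and knockdown replicate 1 was by far the lowest library for both genes. Mx2 was at 110, 109 and 89.7 CPM in controls and 12.6, 90.2 and 59.7 CPM in knockdown libraries. Knockdown replicate 1 was at 12.3% of the control mean and replicate 2 at 87.6%, which reached the lowest control. The change of -0.93 ± 0.29 (SE, edgeR adjusted p = 0.00824) was -0.45 without knockdown replicate 1 and -1.52 without knockdown replicate 2, and DESeq2's Wald test did not call it (adjusted p = 0.289). Mx1 had 52, 52 and 46 counts in controls and 7, 62 and 43 in knockdown libraries. It was not called with all libraries (-0.48 ± 0.35 SE, edgeR adjusted p = 0.244) and was at 0.03 without knockdown replicate 1.

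The oligoadenylate synthetase family makes the messenger that activates RNase L. Oasl, a member without that enzyme activity, was at 43.6, 41.5 and 29.6 CPM in controls and 9.79, 24.6 and 18.6 CPM in knockdown libraries. No libraries overlapped, and the change was -1.12 ± 0.18 (SE, edgeR adjusted p = 1.03e-05). Its neighbour Oasl2 overlapped between groups, at 10.9, 12.2 and 8.56 CPM against 4.57, 11.8 and 7.78 CPM, and was not called (-0.39 ± 0.21 SE, edgeR adjusted p = 0.108). Oas1b, at 7.44, 7.43 and 5.48 CPM in controls and 0.797, 4.73 and 3.32 CPM in knockdown libraries, was lower by edgeR (-1.20 ± 0.29 SE, adjusted p = 0.00109) and was not called by DESeq2's Wald test (adjusted p = 0.115). Without knockdown replicate 1 the change of Oas1b was -0.75 (edgeR adjusted p = 0.0019). Oas1a had 35, 23 and 25 counts in controls and 1, 19 and 28 in knockdown libraries and did not pass (edgeR adjusted p = 0.0996). Oas2, under the filter, had 10, 8 and 4 counts in controls and 1, 12 and 4 in knockdown libraries. In each of these genes knockdown replicate 1 was the lowest library.

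**Figure D4:**
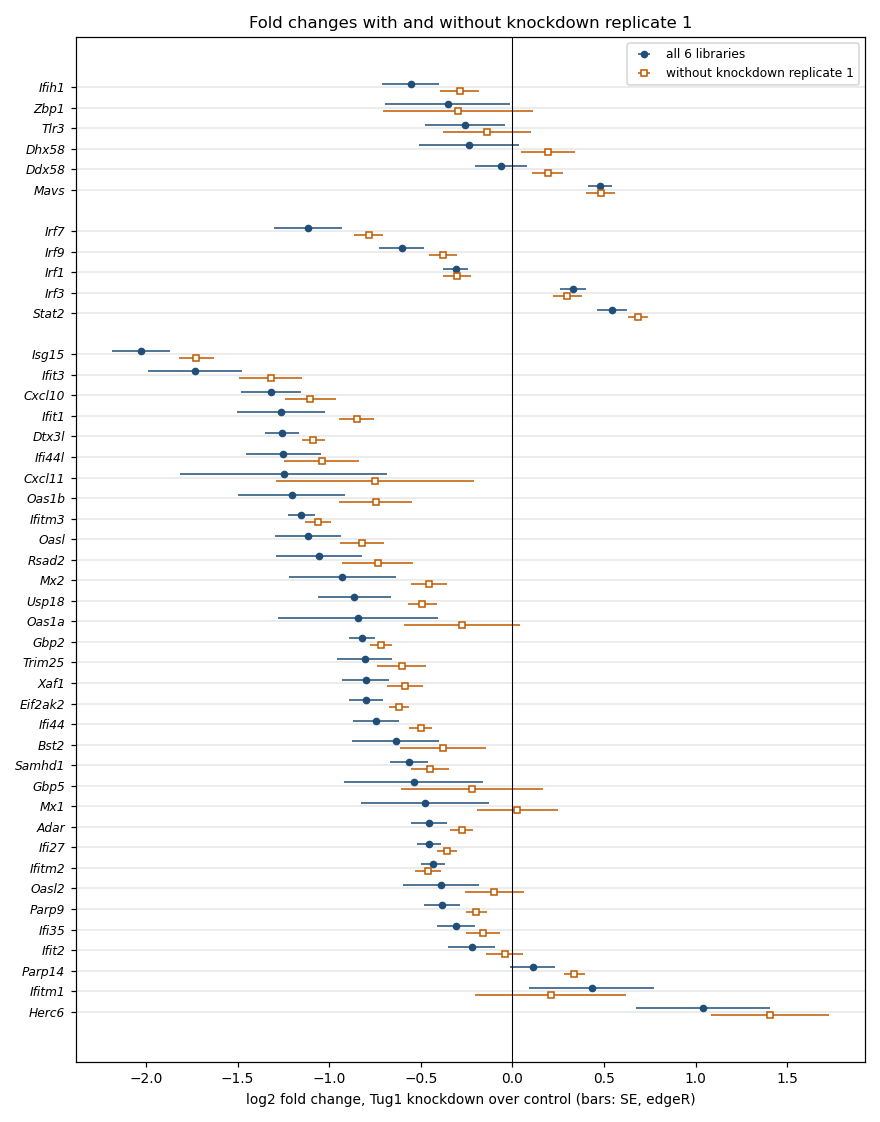
Log2 fold change of each tested member, Tug1 knockdown over control, with all 6 libraries (filled circles) and without knockdown replicate 1 (open squares). Bars are the SE from edgeR. Most effectors shift towards 0 without that library (Isg15 from -2.03 to -1.73), while Mavs, Irf1 and Ifitm2 hardly move.

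Guanylate-binding and other interferon-induced proteins had 6 of 7 members lower and none higher. Gbp2, a GTPase that attacks pathogen membranes, was at 164, 156 and 159 CPM in controls and 77.1, 102 and 92.7 CPM in knockdown libraries. The groups lay far apart beside their spread, with a change of -0.82 ± 0.07 (SE, edgeR adjusted p = 5.72e-10) that was -0.71 without knockdown replicate 1. Xaf1, a pro-apoptotic protein, was at 31.9, 29.3 and 28.8 CPM in controls and 11.8, 22.1 and 17.8 CPM in knockdown libraries, again without overlap. It fell by 0.80 (SE 0.13, edgeR adjusted p = 1.24e-05). Ifi27, a mitochondrial and nuclear membrane protein, was at 527, 516 and 480 CPM in controls and 320, 423 and 369 CPM in knockdown libraries, a smaller change of -0.45 ± 0.07 (SE, edgeR adjusted p = 2.69e-06).

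The neighbouring genes Ifi44 and Ifi44l fell by 0.74 and 1.25 (edgeR adjusted p = 2.34e-05 and 1.38e-05). Ifi35, at 30.4, 26.6 and 28.0 CPM in controls and 18.2, 26.6 and 23.9 CPM in knockdown libraries, touched the control range in knockdown replicate 2. Its change was -0.31 ± 0.10 (SE, edgeR adjusted p = 0.0131), and the call was lost without knockdown replicate 1 (-0.16, adjusted p = 0.137) and without control replicate 1. Gbp5 did not pass, at -0.54 ± 0.38 (SE, edgeR adjusted p = 0.228), and knockdown replicate 2 lay within the control range.

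Of the chemokines, which draw T cells to infected tissue, Cxcl10 was at 35.7, 35.1 and 23.6 CPM in controls and 8.70, 17.2 and 11.9 CPM in knockdown libraries. Every knockdown library was below every control, and the change was -1.32 ± 0.16 (SE, edgeR adjusted p = 2.42e-07), or -1.10 without knockdown replicate 1. Cxcl11, its neighbour and a ligand of the same receptor, had 13, 12 and 12 counts in controls and 1, 14 and 1 in knockdown libraries. It did not pass with all libraries (edgeR adjusted p = 0.0595). Ccl5 was under the filter, with 2, 4 and 0 counts in controls and 0, 3 and 0 in knockdown libraries.

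The interferon genes themselves gave almost no reads. Of 10 listed interferon ligands 9 were in the table, and 7 of these had no count in any library. Ifna1 had 1, 0 and 2 counts in controls and 2, 0 and 1 in knockdown libraries, and Ifnb1 had 1 count, in knockdown replicate 2. None passed the filter, so no change in ligand RNA was detectable at this depth, where the limit of 3 counts corresponds to 0.217 to 0.232 CPM.

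Receptors and kinases of the pathway were mostly lower, by modest amounts. Of 11 receptor, Janus kinase and Stat genes outside the members, 8 were lower and 2 higher, against 30.9% and 30.8% of all tested genes. Without knockdown replicate 1 the counts were 6 and 2, against 29% of all genes in each direction. Jak2, a kinase of the interferon-gamma receptor, was at 115, 110 and 107 CPM in controls and 70.2, 66.9 and 72.1 CPM in knockdown libraries, a change of -0.66 ± 0.06 (SE, edgeR adjusted p = 4.9e-10). The receptor gene Ifngr1 fell by 0.61 (adjusted p = 4.08e-09, edgeR). In neither did knockdown replicate 1 stand apart, and it was the lowest knockdown library in 3 of the 11 genes.

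Ifnar1, a chain of the type I interferon receptor, was at 135, 143 and 132 CPM in controls and 116, 118 and 118 CPM in knockdown libraries. All knockdown libraries were below all controls by a small margin (log2 fold change -0.22 ± 0.05 SE, edgeR adjusted p = 0.000594). Other receptor chains lower after knockdown were Ifngr2 (-0.49), Ifnlr1 (-0.41), Il10rb (-0.36) and Ifnar2 (-0.17, edgeR adjusted p = 0.0444). The call for Ifnar2 was lost without knockdown replicate 1 (-0.16, edgeR adjusted p = 0.103), without knockdown replicate 3 and without control replicate 1 or 3, and with DESeq2's Wald test, library totals or no filter beyond 1 count. Jak1 and Stat3 were the genes of the list called higher, at 0.28 and 0.23, and Jak1 was at 0.08 and not called once a trend on gene length was removed.

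Negative regulators of interferon signalling, which switch receptors and STATs off, had 4 of 12 lower and 4 higher, close to the 30.9% and 30.8% of all tested genes, and a median of 0.05. The phosphatase gene Ptpn11 rose by 0.60 and the repressor Irf2 by 0.39, while Socs3 and Pias4 were at -0.39 and -0.37. Irf2 was at 0.17 and not called once the trend on gene length was removed. Genes of cytosolic DNA and endosomal nucleic acid sensing had 7 of 15 lower and 4 higher, against 30.9% and 30.8% of all tested genes. Their median was -0.20. Myd88, the adaptor of most Toll-like receptors, was at 66.3, 69.6 and 66.4 CPM in controls and 39.6, 36.6 and 34.6 CPM in knockdown libraries, a change of -0.87 ± 0.06 (SE, edgeR adjusted p = 6.91e-11). Knockdown replicate 1 was the highest of the knockdown libraries in Myd88. The DNA-sensing adaptor Sting1 and the factor Irf5 were at -0.61 and -0.70, Rnaseh2b, a subunit of RNase H2, was at 1.21, and all were called.

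NF-kB subunits, inhibitors and targets had 10 of 19 lower and 7 higher, against 30.9% and 30.8% of all tested genes, with a median of -0.18. The lower genes with the largest change were the chemokine Cxcl1 (-1.43), the subunit Rel (-1.33), the inhibitor Tnfaip3 (-1.26) and the cytokine Il6 (-0.87). Of the other subunits, Nfkb1 (0.81), Relb (0.77) and Rela (0.54) were called higher and Nfkb2 (-0.18) was called lower. Antigen presentation genes, many of them induced by interferon-gamma, had 13 of 19 lower and none higher, against the same shares of all tested genes. Their median was -0.42, and knockdown replicate 1 was lowest in 13, where 33.6% of all tested genes had it lowest. Tap1, which pumps peptides into the endoplasmic reticulum, was at 239, 254 and 217 CPM in controls and 89.5, 129 and 111 CPM in knockdown libraries, a change of -1.11 ± 0.08 (SE, edgeR adjusted p = 8.35e-11). Tapbp was at -0.92, the class I gene RT1-CE5 at -0.68 and the proteasome activator Psme1 at -0.61. RT1-CE5, a gene of a family with similar copies, was at -0.27 and not called without control replicate 2 (edgeR adjusted p = 0.174).

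A list of 67 further interferon-induced genes, 62 of them in the table and 52 tested, had 29 lower and 6 higher. The shares of all tested genes were 30.9% and 30.8%, and the median of the list was -0.39. Knockdown replicate 1 was the lowest knockdown library in 45 of the 52 (86.5%), against 33.6% of all tested genes. Without that library, 27 were lower and 9 higher, against 29% of all genes in each direction. Irgm, an immunity-related GTPase, was at -1.39, Tent5a at -1.24 and Shisa5 at -1.07, and all were called.

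**Figure D5:**
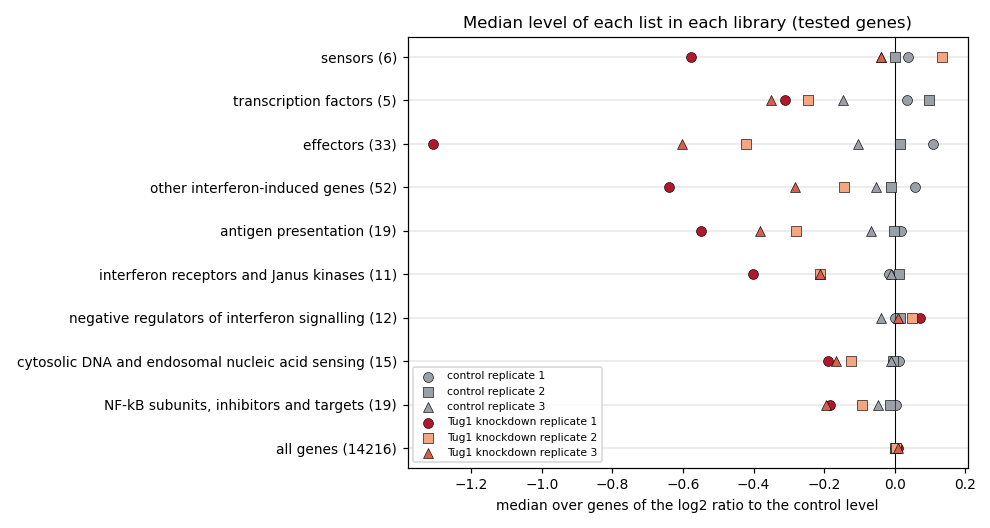
Median over tested genes of the log2 ratio to the control level in each of the 6 libraries (points), for the member classes, the pathway lists and all tested genes (number of genes in brackets). In effectors the 3 knockdown libraries spread from -1.31 to -0.42, while over all tested genes they lie between 0.00 and 0.01.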

How the data were processed

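Poly-A RNA of 6 H9c2 libraries was sequenced after stranded library preparation, per the labels' protocols, from 500 ng of total RNA with integrity numbers of at least 9. The authors deposited whole-number read counts per gene symbol for each library, without scaling or pooling, as the values themselves showed. The submitters' processing notes name FastQC 0.11.7, fastp 0.14.1 and STAR 2.5, without saying what each did. The counting tool, genome build, annotation, use of strand and treatment of reads that match several genes are not given in the sources used here. The table had 0 unnamed rows and 0 columns of other samples, and 14397 genes had no count.

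The analysis used edgeR 4.0.16 under R 4.3.3: expression filter (minimum count 10, minimum total 15), TMM scaling (factors 0.979 to 1.02), quasi-likelihood fit of all 6 libraries without a block, two-sided test, and Benjamini-Hochberg adjustment over the 14216 tested genes. Calls were made at an adjusted p under 0.05. Tested genes held 99.8% of the counts. The SE of a log2 fold change is its size divided by the square root of the F statistic. CPM are on the TMM scale, and levels of different genes were not compared, since no transcript lengths were used. The floor of 3 counts covers counting error only, because reads lacking molecular identifiers do not count independent molecules.

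The members, their classes, the pathway and marker lists and the tests were chosen with earlier results of these data known. Library values were printed for every sensor and transcription factor, the 12 effectors with the largest called change at a mean of at least 5 CPM without overlap, effectors called higher and the 3 effectors with the highest CPM. Of each pathway list the 4 called genes with the largest change at that mean were named, with called receptor, kinase and Stat genes. A gene that met the rule is counted but not reported here by name. Library values of other members were added after their values were seen. The NF-kB subunits Nfkb1, Nfkb2, Rela and Relb were named in addition.

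Same-numbered control and knockdown libraries did not deviate together (correlations -0.0053, 0.0298 and 0.027), so the numbers were not taken as pairs. Alternatives were DESeq2 size factors, library totals, DESeq2's Wald test (DESeq2 1.42.0), no filter beyond 1 count, a mean of at least 1 CPM, a threshold of 0.01 on the adjusted p, a replicate block, an offset for a lowess trend (span 0.3) on genomic span without and with the block, leaving out 1 library at a time, and a shorter promoter window. The script was tested on simulated data.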

Additional observations from a re-analysis of the deposited data

How the results depend on the processing

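Across 15 alternatives, the 44 tested members gave 658 combinations, of which 617 kept direction and call, 22 lost a call, 15 gained one and 4 turned sign. The sign turned without knockdown replicate 1 for Ddx58 (0.19), Dhx58 (0.19) and Mx1 (0.027), and without knockdown replicate 2 for Parp14 (-0.057), and the cause was not tested. Over the libraries left out, Ddx58 ran from -0.26 to 0.19, Dhx58 from -0.70 to 0.19, Mx1 from -1.05 to 0.027 and Parp14 from -0.057 to 0.34. Of the 32 called members 23 never lost the call, 20 of them lower.

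Leaving out each library in turn gave 30 to 37 changed members, 26 to 34 lower members, 2 to 3 changed sensors, 5 changed transcription factors and 23 to 29 changed effectors. Over all genes it gave 8128 to 8410 changed genes, or 56% to 58.1% of those tested, and 28.2% to 29% were lower. The log2 fold change of Tug1 ran from -2.22 to -2.15. Without knockdown replicate 1 the change of Ifih1, Irf9, Mx2, Oas1b, Bst2, Adar, Usp18, Parp9 and Ifi35 moved by over 1.5 times, and without knockdown replicate 2 that of Mx2 did.

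DESeq2's Wald test called 1 sensor in place of 2, and 25 members in place of 32, against 55.4% of all tested genes. Of these members 21 were lower, against 28.1% of all tested genes lower by that test. The Wald test did not call Ifih1 (adjusted p = 0.122), Ifit1, Mx2, Oas1b, Bst2 (0.0566), Usp18 and Parp9 (0.101). The offset for genomic span, fitted on 13079 genes, called 30 members, against 62.1% of all genes in that fit. With the offset, Bst2 (edgeR adjusted p = 0.0777) and Ifi35 (0.0857) were lost. Library totals moved the median of all genes to 0.06 and left 32 members changed, 28 of them lower. Over all tested genes 61.9% were changed and 27.4% lower with library totals. With the replicate number as a block 34 members were called, 30 of them lower. Oasl2 (-0.42) and Cxcl11 (-1.32) were gained and none was lost. Over all tested genes the block called 8848 (62.2%), and 31.2% were lower.

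Oas1a, Cxcl11, Zbp1, Ifitm1, Gbp5, Oas2 and Ccl5 had at most 35 counts in any library, and none of them was called with all 6 libraries. For the interferon ligands 0 changed genes were found under every setting. With 7 of the 9 ligands in the table at no count and none past the filter, these settings could not show whether ligand RNA changed.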
